A study of Rattus norvegicus with 48 samples.

Results

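Transcription in rat cortical cultures that had received the HIV-1 protein Tat together with cocaine (Tat-Cocaine) was compared with that in untreated cultures (Control). The groups were set by the treatment labels, and the test covered 15609 of the 30211 genes of the deposited table, those above a minimum level. The gene lists described were chosen with earlier results of these data known. The comparison rests on 6 of the 48 RNA-seq libraries of the series, 3 per group. Its SE and p-values use a spread estimated from 21 libraries of 7 groups, among them cultures given a small molecule. The cultures were prepared from the cortex of 18-day-old Sprague-Dawley fetuses and used after 3 weeks in vitro (DIV 21). Tat-Cocaine cultures received Tat protein, residues 1 to 86 of the transactivator, at 6 ng/mL for 48 h and cocaine hydrochloride at 25 µM for 24 h, while Control cultures received neither. By the study's description cocaine followed the Tat period, so that Tat may have been present for longer in Tat-Cocaine than in Tat cultures. The other libraries used here were those given Tat alone (6 ng/mL), cocaine alone (25 µM), or a small molecule without and with Tat and cocaine. Nothing in the sources used here says whether the 3 libraries of a group came from separate dissections. The p-values therefore measure a spread between libraries of the same group, over the groups fitted, which may be in part technical.

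The labels call the cells neurons. The transcripts of neurons (Map2, 500 to 639 CPM in Control), astrocytes (Gfap, 4044 to 4756 CPM) and microglia or other myeloid cells (Csf1r, 303 to 456 CPM) were nevertheless all present, which is the make-up of a mixed culture of neurons and glia. Of the defining markers of cells that such a culture should lack, the neutrophil gene Elane was at 0 in all 6 libraries and the T cell gene Cd3e was at 0 in 5 of them, at 0.0403 CPM in the other. The endothelial gene Cldn5 did not pass 0.0681 CPM. Other genes of endothelium, pericytes and fibroblasts were present, however, with 19 above the minimum and a list sum of 1139 to 1801 CPM in Control. A large part of that sum came from the gene Tagln. As a model, such cultures are limited to dissociated fetal cells without intact blood vessels or circulating leukocytes, and they received purified viral protein rather than virus.

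Tat is the protein with which HIV-1 drives the transcription of its own genome, and infected cells release it into the surrounding brain tissue. Microglia and astrocytes meet it through surface receptors, and the usual first steps are release of NF-κB from its inhibitor in the cytoplasm, transcription of cytokines and chemokines, and then a later wave of antigen presentation, complement and acute-phase genes driven by those cytokines. Cocaine blocks the transporters that clear dopamine, noradrenaline and serotonin, and also binds the sigma-1 receptor of glia and neurons.

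Expression is given as CPM, the reads of a gene scaled to the size of its library after the authors' normalization, in the order of replicates 1, 2 and 3. Differences are log2 fold changes of CPM + 0.5 with their standard error (SE), a scale that understates the change of genes with few reads. Genes that reached 0.5 CPM in at least 3 of 21 libraries were tested with limma, 15609 in all, and a gene is said to have risen or fallen where its Benjamini-Hochberg adjusted p was under 0.05. The 6 libraries held 19.9 to 25.5 M (mega) gene-assigned reads, and 0.5 CPM stood for 10.2 to 13.04 of them. Mitochondrial transcripts took 5.32 to 9.27% of the sum.

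Between Tat-Cocaine and Control cultures 1463 of 15609 genes changed, 9.37% of those tested. Of these 797 rose (5.11%) and 666 fell (4.27%). The rises were the larger changes. Among the genes that rose, 376 did so by at least 1 on the log2 scale, 127 by at least 2 and 52 by at least 3, with a median of 0.93. Among those that fell, 198 did so by at least 1, 24 by at least 2 and 1, the ciliogenesis regulator Gmnc, by at least 3, with a median of −0.72. The 3 Tat-Cocaine libraries all lay above the 3 Control libraries for 787 of the 797 risen genes, and all below them for 660 of the 666 fallen genes. In all, 15.2% of the genes tested lay wholly above and 13.4% wholly below without regard to any test.

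**Figure D1:**
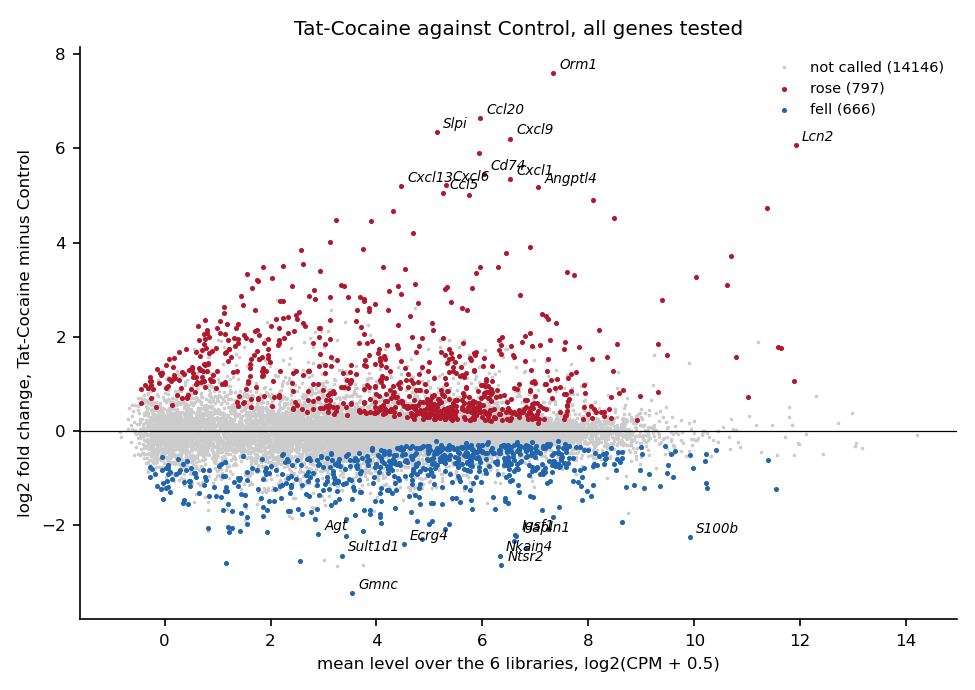
Log2 fold change of each of the 15609 genes tested (vertical axis, Tat-Cocaine minus Control, log2(CPM + 0.5) scale) against its mean level over the 6 libraries (horizontal axis, log2(CPM + 0.5)). Red points are the 797 genes that rose, blue points the 666 that fell and grey points the genes not called; the rises reach above 6, while 1 fall passes −3.

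The Tat-Cocaine libraries were not equally far from Control. Replicate 3 was the highest of the 3 Tat-Cocaine libraries for 451 of the 797 risen genes, replicate 2 for 268 and replicate 1 for 78. Leaving out Tat-Cocaine replicate 2 reduced the genes called from 1463 to 803, leaving out replicate 3 to 932, and leaving out Control replicate 3 to 921. With each of the 6 libraries left out in turn, 324 genes rose and 259 fell in every fit. A fit to the 6 libraries alone called 619 of 15075 genes. Control and Tat-Cocaine libraries with the same number deviated together, and a fit that took up the number as a block called 2120 genes. The labels give a number but no pairing. Of the other groups fitted, only Control matched Tat-Cocaine libraries at all 3 numbers, and Tat matched them at none. Calls made only with this replicate block are therefore given as an alternative. The Control libraries differed by list as well. Replicate 2 was the highest Control library for 37 of 39 interferon response, 25 of 25 class I and 26 of 27 pan-myeloid genes, replicate 1 for 28 of 29 neuron markers and 34 of 36 glutamate and GABA receptor genes, and replicate 3 for 24 of 28 ependymal genes. Where leaving out such a library moved the calls of a list, the counts are given with that list below. Their part in the results was not tested otherwise.

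Before the values, the promoters of 5 of the genes that rose are shown, because they carry the NF-κB consensus and belong to genes of the inflammatory response described below. Promoters are RefSeq sequences of the rat assembly GRCr8, from 250 bases before to 50 bases after the start of the gene, and 10365 of the 15609 genes tested had a single one. The NF-κB consensus, searched on both strands, was present in 5.25% of these promoters. It was present in 10.4% of the promoters of risen genes (60 of 577), in 20% of those of genes that rose by at least 2 on the log2 scale (18 of 90), and in 3.33% of those of fallen genes (15 of 451). Of the 12 largest rises among genes with at least 5 CPM that were called in every fit with a library left out, 9 had a promoter in the table and 5 of these a match, and of the 12 largest falls 7 had one and 0 a match.

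The promoters below belong to the chemokine Ccl20 (chr9:91836909-91837208, + strand), the iron-siderophore binding protein Lcn2 (chr3:36081731-36082030, − strand), the neutrophil chemokines Cxcl1 (chr14:17479272-17479571, − strand) and Cxcl6 (chr14:17596368-17596667, − strand), and the NF-κB inhibitor Nfkbia (chr6:78597023-78597322, − strand). Each is written 5′ to 3′ in the direction of the gene, and the capitals mark the match to the NF-κB consensus.
Ccl20: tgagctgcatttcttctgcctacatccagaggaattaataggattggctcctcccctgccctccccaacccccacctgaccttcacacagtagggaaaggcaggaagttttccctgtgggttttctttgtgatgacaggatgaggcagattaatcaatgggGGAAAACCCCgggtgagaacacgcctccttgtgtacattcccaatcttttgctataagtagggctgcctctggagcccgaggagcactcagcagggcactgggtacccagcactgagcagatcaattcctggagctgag
Lcn2: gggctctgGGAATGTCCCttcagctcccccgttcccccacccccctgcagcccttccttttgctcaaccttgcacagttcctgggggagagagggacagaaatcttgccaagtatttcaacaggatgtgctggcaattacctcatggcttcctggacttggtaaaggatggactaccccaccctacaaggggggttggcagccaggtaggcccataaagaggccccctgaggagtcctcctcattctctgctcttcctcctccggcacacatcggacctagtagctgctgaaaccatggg
Cxcl1: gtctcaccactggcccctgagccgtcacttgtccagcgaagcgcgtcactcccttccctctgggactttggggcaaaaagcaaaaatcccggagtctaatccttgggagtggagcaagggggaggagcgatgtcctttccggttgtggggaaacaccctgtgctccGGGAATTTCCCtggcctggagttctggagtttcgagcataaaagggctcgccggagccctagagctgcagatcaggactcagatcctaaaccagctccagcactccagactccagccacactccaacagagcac
Cxcl6: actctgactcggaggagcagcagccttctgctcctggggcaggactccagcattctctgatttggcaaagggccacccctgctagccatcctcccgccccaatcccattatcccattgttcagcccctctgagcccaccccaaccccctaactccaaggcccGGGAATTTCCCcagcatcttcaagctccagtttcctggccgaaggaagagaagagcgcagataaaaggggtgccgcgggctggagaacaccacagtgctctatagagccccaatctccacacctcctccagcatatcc
Nfkbia: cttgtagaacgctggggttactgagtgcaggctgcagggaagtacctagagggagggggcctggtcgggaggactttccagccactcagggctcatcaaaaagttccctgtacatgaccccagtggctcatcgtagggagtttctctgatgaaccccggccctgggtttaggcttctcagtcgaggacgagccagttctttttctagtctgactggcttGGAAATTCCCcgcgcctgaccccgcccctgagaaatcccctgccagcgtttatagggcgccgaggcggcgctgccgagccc

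In Ccl20 the match begins 89 bases before the start of the gene, in Cxcl1 84 and in Cxcl6 88 bases before it, and in Nfkbia 31 bases before it. In Lcn2 it lies at 242 bases, near the far end of the window. The matches of Cxcl1 and Cxcl6 read on either strand, with a shift of 1 base, and are the same letters in both genes. A match is a stretch of letters and was not tested for binding.

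Other motifs were searched in the same promoters. TTGCNNAA, the core of the sites of C/EBP factors, was present in 8.80% of all promoters, in 11.1% of those of risen genes and in 22.2% of those of genes that rose by at least 2. TGANTCA, the AP-1 site, was present in 5.03, 7.28 and 14.4% of the same 3 sets. The interferon-stimulated response element was present in 2.92, 5.03 and 6.67%, and in 0.665% of the promoters of fallen genes. The STAT site TTCNNNGAA (6.503, 6.41 and 7.78%) and the CCAAT box (37.4, 35.4 and 33.3%) differed little between these sets. These shares are descriptions and carry no test.

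Cytokines and the molecules that restrain them were among the genes that rose. Of 23 cytokine genes tested 8 rose and 0 fell, with a median log2 fold change of 0.97 beside 0.01 over all genes tested. The count was 4 without Tat-Cocaine replicate 2 or 3 and 5 without Control replicate 1 or 3. Il1b, which encodes the inflammasome-processed cytokine interleukin-1β, stood at 2.38, 5.93 and 5.27 CPM in Control and at 20.3, 40.7 and 82.3 CPM in Tat-Cocaine libraries. The 3 Tat-Cocaine libraries lay above all Control libraries, and the difference was 3.13 (SE 0.63, adjusted p 0.0048). Il1rn, whose product occupies the interleukin-1 receptor without signalling, stood at 1.42, 3.09 and 1.32 CPM in Control and at 18.7, 55.2 and 73.1 CPM in Tat-Cocaine libraries. Its rise was 4.21 (SE 0.62, adjusted p 0.00046), again with no overlap. Clcf1, a ligand of the ciliary neurotrophic factor receptor, and Tnfsf9, the ligand of the T cell receptor 4-1BB, rose by 1.28 each. Csf3, the granulocyte colony-stimulating factor, was at 0 in all Control libraries and at 0.170, 1.51 and 1.69 CPM with Tat and cocaine, which is at least 8.48-fold higher when Control is set to 3 reads per library. The call for Csf3 was lost without Tat-Cocaine replicate 2 or 3, with 1.28 and 1.22 in place of 1.52.

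Cytokines that are often measured in this setting did not all change. Il6 stood at 0.268, 1.32 and 0.363 CPM in Control and at 0.511, 2.05 and 3.06 CPM in Tat-Cocaine libraries (0.97, SE 0.61, adjusted p 0.36), and the groups overlapped. For Ccl3 the values were 1.69, 3.19 and 3.63 against 2.92, 11.1 and 16.1 CPM (1.44, SE 0.61, adjusted p 0.15). Tnf was below the minimum for testing, with 0 to 0.0227 CPM in Control and 0 to 0.0819 CPM in Tat-Cocaine libraries. Il1a went from between 1.27 and 2.70 to between 2.51 and 10.0 CPM (1.43, adjusted p 0.094), a difference that was called with the replicate block (adjusted p 0.0103).

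Of the 39 lists of genes looked at, CC chemokines had the largest median change. Of their 13 genes 9 rose and 1 fell (median 2.99), and of 14 CXC and CX3C chemokines 7 rose and 1 fell (median 1.91). Ccl2, which draws monocytes, stood at 12.6, 90.0 and 15.7 CPM in Control and at 319, 974 and 737 CPM in Tat-Cocaine libraries (4.52, SE 0.65, adjusted p 0.00036). Control replicate 2 was the highest of its group and still lay below the lowest Tat-Cocaine library. Its neighbour in function Ccl7 rose by 4.90, and Ccl5, which attracts T cells and monocytes, by 5.04, from 0.537, 5.20 and 0.681 to 35.7, 133 and 51.5 CPM (SE 0.52, adjusted p 1.9e-05). Ccl19, which guides lymphocytes and dendritic cells, rose by 4.67, from between 0 and 2.60 to between 9.94 and 84.6 CPM. Chemokines of the neutrophil-attracting group moved likewise. Cxcl1 stood at 2.07, 7.11 and 2.45 CPM in Control and at 73.3, 260 and 204 CPM in Tat-Cocaine libraries (5.35, SE 0.64, adjusted p 6.5e-05), and Cxcl3 rose by 3.51. Cxcl6 was far from uniform, with 5.07, 25.9 and 204 CPM in the 3 Tat-Cocaine libraries against at most 0.652 CPM in Control (5.22, SE 1.14, adjusted p 0.0082).

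Among chemokines of the lymphoid and interferon groups, Cxcl9, a T cell attractant, rose by 6.21 (SE 0.74, adjusted p 6.4e-05) from 0.192, 8.53 and 1.32 to 97.6, 173 and 269 CPM. Cxcl13, which attracts B cells, rose by 5.19 (SE 0.53, adjusted p 1.7e-05), with 0.230, 1.13 and 0.499 CPM in Control and 51.6, 18.8 and 57.4 CPM in Tat-Cocaine libraries. Cxcl10, a close relative of Cxcl9, did not pass the test: its Control libraries held 6.98, 183 and 28.5 CPM and its Tat-Cocaine libraries 66.0, 133 and 23.3 CPM (0.80, SE 0.93, adjusted p 0.65). Here the spread between Control libraries was as wide as that between the groups. Ccl22, a product of activated macrophages and dendritic cells, rose by 3.24, whereas Ccl17, which binds the same receptor, fell by 0.83 on the log2 scale (SE 0.15, adjusted p 0.0024), from 0.844, 0.735 and 0.635 to 0.319, 0.123 and 0.161 CPM. Pf4, a chemokine of platelets and macrophages, fell by 2.08 on the log2 scale (adjusted p 0.0081), a call that was lost without Tat-Cocaine replicate 2 (−1.62, adjusted p 0.0516).

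**Figure D2:**
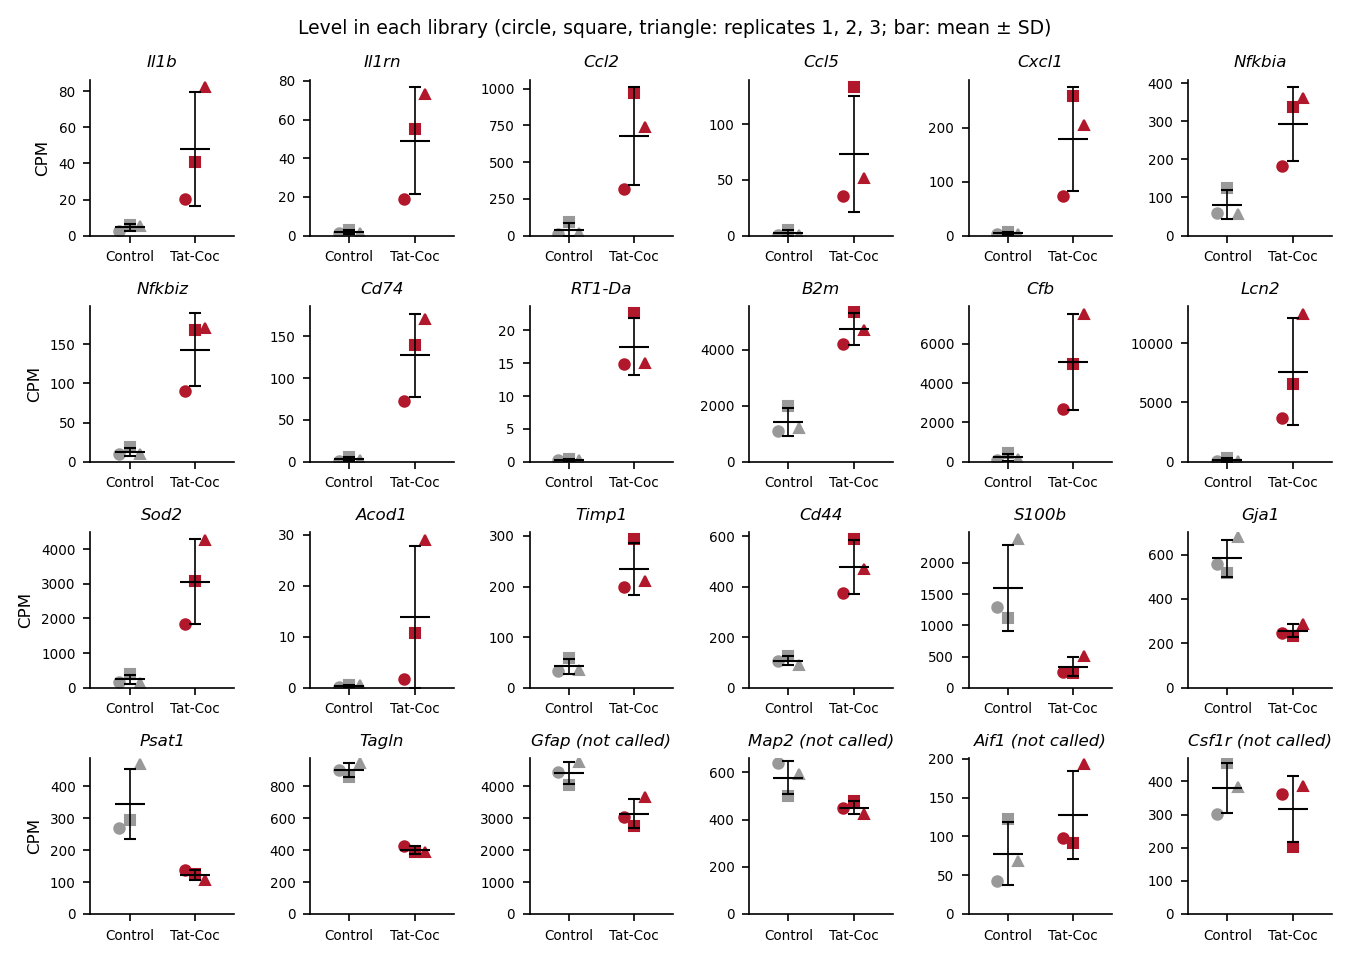
CPM (vertical axis of each panel, from 0) of 24 genes in the 3 Control (grey) and the 3 Tat-Cocaine (red) libraries, with the mean ± SD of each group as a bar. Panels marked as not called (Gfap, Map2, Aif1 and Csf1r) did not pass the test, and Lcn2 shows the widest step, from at most 315 to at least 3676 CPM.

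Receptors for these ligands moved less. Of 30 cytokine and chemokine receptors 7 rose and 1 fell (median 0.53), 5 were called without Control replicate 1 or 3, and 13 with the replicate block. Osmr, the oncostatin M receptor through which glia answer cytokines of the interleukin-6 family, rose by 2.88 (SE 0.36, adjusted p 1.0e-04), from 20.7, 28.6 and 20.2 to 97.5, 193 and 269 CPM. Il18rap, a subunit of the interleukin-18 receptor, rose by 1.98 with little spread, from 0.498, 0.637 and 0.363 to 3.24, 3.52 and 3.54 CPM. Il13ra1 (1.56) and the type I interferon receptor subunit Ifnar2 (1.08) rose as well. Cxcr4, the receptor of the chemokine Cxcl12, fell by 0.99 on the log2 scale (adjusted p 0.015), from 47.9, 51.7 and 86.2 to 26.6, 24.3 and 41.3 CPM, and the call was lost without Control replicate 3 (−0.73), Tat-Cocaine replicate 1 (−0.91) or Tat-Cocaine replicate 2 (−0.84).

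Innate sensors shared this pattern in part, with 6 of 28 pattern recognition and inflammasome genes risen and 0 fallen (median 0.60). The most even was Clec7a, the β-glucan receptor dectin-1 of myeloid cells, with 1.88, 2.01 and 2.54 CPM in Control and 24.7, 12.9 and 19.5 CPM in Tat-Cocaine libraries (2.85, SE 0.23, adjusted p 2.2e-06). Clec4d (2.68), Trem1 (2.19), an amplifier of Toll-like receptor signalling, and Nod2 (1.97), a sensor of bacterial cell wall fragments, also rose. Tlr2 went from 32.8, 63.3 and 56.1 to 71.8, 78.3 and 165 CPM and did not pass the test (0.99, adjusted p 0.26).

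Genes of the NF-κB pathway, among them its feedback inhibitors, rose in part. Of 25 NF-κB subunits and feedback inhibitors 12 rose and 0 fell, with a median of 0.83, and 8 of the 12 did so in every fit with a library left out. Nfkbia, the inhibitor IκBα that holds NF-κB in the cytoplasm, stood at 60.3, 126 and 57.6 CPM in Control and at 182, 338 and 361 CPM in Tat-Cocaine libraries (1.88, SE 0.36, adjusted p 0.0036). All treated libraries were higher than the highest Control library. Nfkbiz, the nuclear IκBζ needed for secondary response genes such as Lcn2, rose further, from 9.66, 18.3 and 9.53 to 89.9, 169 and 171 CPM (3.48, SE 0.39, adjusted p 4.2e-05). Birc3 (3.47), an inhibitor of apoptosis and ubiquitin ligase of the pathway, the RNase Zc3h12a (2.44), which degrades cytokine transcripts, Bcl3 (2.26), Socs3 (1.67), Ikbke (1.61) and Tnip1 (1.53) rose too. The subunit gene Relb, at 12.9, 25.7 and 19.3 against 25.1, 34.7 and 48.8 CPM, did not pass the test (0.89, adjusted p 0.11) and was called with the replicate block (adjusted p 0.021).

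Antigen presentation by MHC class II, the pathway that shows peptides to CD4 T cells, went from near absence to a measurable level. Of 13 class II and costimulation genes 10 rose and 0 fell (median 2.06). Cd74, the invariant chain that escorts class II molecules, stood at 0.844, 5.69 and 2.04 CPM in Control and at 72.8, 139 and 170 CPM in Tat-Cocaine libraries (5.45, SE 0.67, adjusted p 8.4e-05). The class II chains RT1-Da (4.48, SE 0.33), RT1-Db1 (4.02), RT1-Ba (3.55) and RT1-Bb (3.22) rose with it. RT1-Da held at most 0.441 CPM in Control and 14.9, 22.6 and 15.1 CPM in Tat-Cocaine libraries. Ciita, the transactivator that switches these genes on, was at 0.0383, 0.0981 and 0 CPM in Control and at 0.766, 3.19 and 5.92 CPM in Tat-Cocaine libraries (2.51, SE 0.49, adjusted p 0.0036). Of the costimulatory genes, Icoslg rose by 2.00 and Cd274, which encodes the T cell inhibitor PD-L1, by 2.06, from 4.18, 5.59 and 4.36 to 17.2, 26.2 and 21.0 CPM.

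Class I genes started from a high level and rose less. Of 25 class I and immunoproteasome genes 12 rose and 0 fell (median 1.11), and 7 without Tat-Cocaine replicate 2. Control replicate 2 was the highest Control library for all 25. B2m, the light chain of every class I molecule, went from 1077, 1978 and 1185 to 4188, 5328 and 4708 CPM (1.79, SE 0.25, adjusted p 0.00031), so that the 3 treated libraries were closer to one another than the Control libraries. The heavy chain RT1-A2 stood at 275, 589 and 254 CPM in Control and at 1048, 1133 and 1000.1 CPM in Tat-Cocaine libraries (1.61, SE 0.35, adjusted p 0.0076). Heavy chain genes of the rat RT1 complex are near copies of each other, and how reads were divided among them is uncertain. The peptide transporter Tap1, at 29.3, 108 and 42.01 against 71.2, 97.2 and 60.5 CPM, did not pass the test (0.55, adjusted p 0.46).

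The interferon response, too, was uneven between Control libraries, with replicate 2 the highest for 37 of 39 genes. Of these 39 interferon response genes 8 rose and 0 fell (median 0.79), 3 of them in every fit with a library left out, and 14 were called with the replicate block. Leaving out Control replicate 2 raised the count to 21. It fell to 4 when Control replicate 1 was left out, and to 3 for Control replicate 3 and for Tat-Cocaine replicates 2 and 3. Irf7, a master regulator of the response, stood at 7.30, 143 and 25.9 CPM in Control and at 263, 368 and 345 CPM in Tat-Cocaine libraries (3.38, SE 0.71, adjusted p 0.0063). Ifitm2 and Ifitm1, membrane proteins that hinder virus entry, rose by 1.94 (SE 0.22, adjusted p 4.1e-05) and 1.69 (SE 0.31, adjusted p 0.0025). Irf1, induced by interferon gamma, did not pass the test, with 30.04, 67.0 and 41.3 against 44.7, 67.7 and 65.3 CPM (0.41, adjusted p 0.45).

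Secreted defence proteins reached high levels. Of 20 acute-phase and secreted defence genes 12 rose and 0 fell (median 1.85). Lcn2, lipocalin-2, which starves bacteria of iron, stood at 94.7, 315 and 32.96 CPM in Control and at 3676, 6585 and 12511 CPM in Tat-Cocaine libraries (6.07, SE 0.86, adjusted p 0.00033). LOC299282, whose RefSeq symbol is Serpina3l and which belongs to the serine protease inhibitors, rose by 5.90 (SE 0.71, adjusted p 7.5e-05). Chi3l1, a chitinase-like glycoprotein of reactive astrocytes, rose by 3.27 from 143, 261 and 126 to 759, 1734 and 3223 CPM. Ptx3, a soluble pattern recognition protein, rose by 3.92 (SE 0.60, adjusted p 0.00060), from 11.4, 28.9 and 6.49 to 114, 227 and 324 CPM. Retn, resistin, was at 0 in every Control library and at 2.75, 7.12 and 4.75 CPM in Tat-Cocaine libraries (3.34, SE 0.26, adjusted p 2.2e-06), at least 36.7-fold higher when Control is set to 3 reads per library. S100a8 (2.27) and the cathelicidin gene Camp (1.69), known from neutrophils, rose from low levels, while the neutrophil gene Elane remained at 0 in all 6 libraries.

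Complement genes were mixed. Of 25 complement genes 3 rose and 2 fell (median 0.32), and 9 were called with the replicate block. Only 2 were called without Control replicate 3 or Tat-Cocaine replicate 2, and 3 without Control replicate 1 or Tat-Cocaine replicate 3. Cfb, factor B of the alternative pathway, stood at 85.8, 432 and 140 CPM in Control and at 2668, 5001 and 7550 CPM in Tat-Cocaine libraries (4.74, SE 0.70, adjusted p 0.00045). Serping1, the inhibitor of the C1 protease, rose by 3.11 (SE 0.50, adjusted p 0.00082) from 263, 574 and 196 to 1746, 2862 and 3818 CPM. C3, the central component, stood at 648, 1526 and 739 CPM in Control and at 2626, 2206 and 6424 CPM in Tat-Cocaine libraries. That difference missed the threshold (1.89, SE 0.60, adjusted p 0.058) although the groups did not overlap, and it was called with the replicate block (adjusted p 0.018).

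Metabolic genes of activated macrophages and glia followed. Of 28 genes of itaconate and inflammatory metabolism 11 rose and 3 fell (median 0.50), and of these 14 calls the count was 7 without Tat-Cocaine replicate 3, 8 without Control replicate 1 and 9 without Tat-Cocaine replicate 2. Acod1, the enzyme that makes itaconate from an intermediate of the citric acid cycle, stood at 0.115, 0.539 and 0.454 CPM in Control and at 1.66, 10.8 and 28.99 CPM in Tat-Cocaine libraries. Its rise of 3.40 (SE 0.85, adjusted p 0.018) rested on few reads in Control, and the call was lost without Control replicate 1 (3.17), Tat-Cocaine replicate 2 (3.23) or Tat-Cocaine replicate 3 (2.54). Sod2, the mitochondrial superoxide dismutase, went from 175, 398 and 149 to 1847, 3078 and 4270 CPM (3.73, SE 0.39, adjusted p 2.4e-05), with no overlap. Ptges, which makes prostaglandin E2, rose by 4.45 (SE 0.57, adjusted p 0.00012) from at most 0.834 CPM to 7.37, 46.3 and 31.2 CPM. Ch25h, which makes 25-hydroxycholesterol, rose by 2.77, the uridine phosphorylase Upp1 by 2.74, Gch1, the first enzyme of tetrahydrobiopterin synthesis, by 1.84, and the glycolytic activator Pfkfb3 by 0.82. Hif1a rose by 0.49 (SE 0.08, adjusted p 0.0012), from 96.1, 101 and 98.6 to 124, 145 and 148 CPM. Angptl4, a lipoprotein lipase inhibitor outside these lists and among the 12 largest rises, went from 5.18, 10.1 and 4.68 to 151, 357 and 268 CPM (5.17, SE 0.48, adjusted p 7.6e-06).

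**Figure D3:**
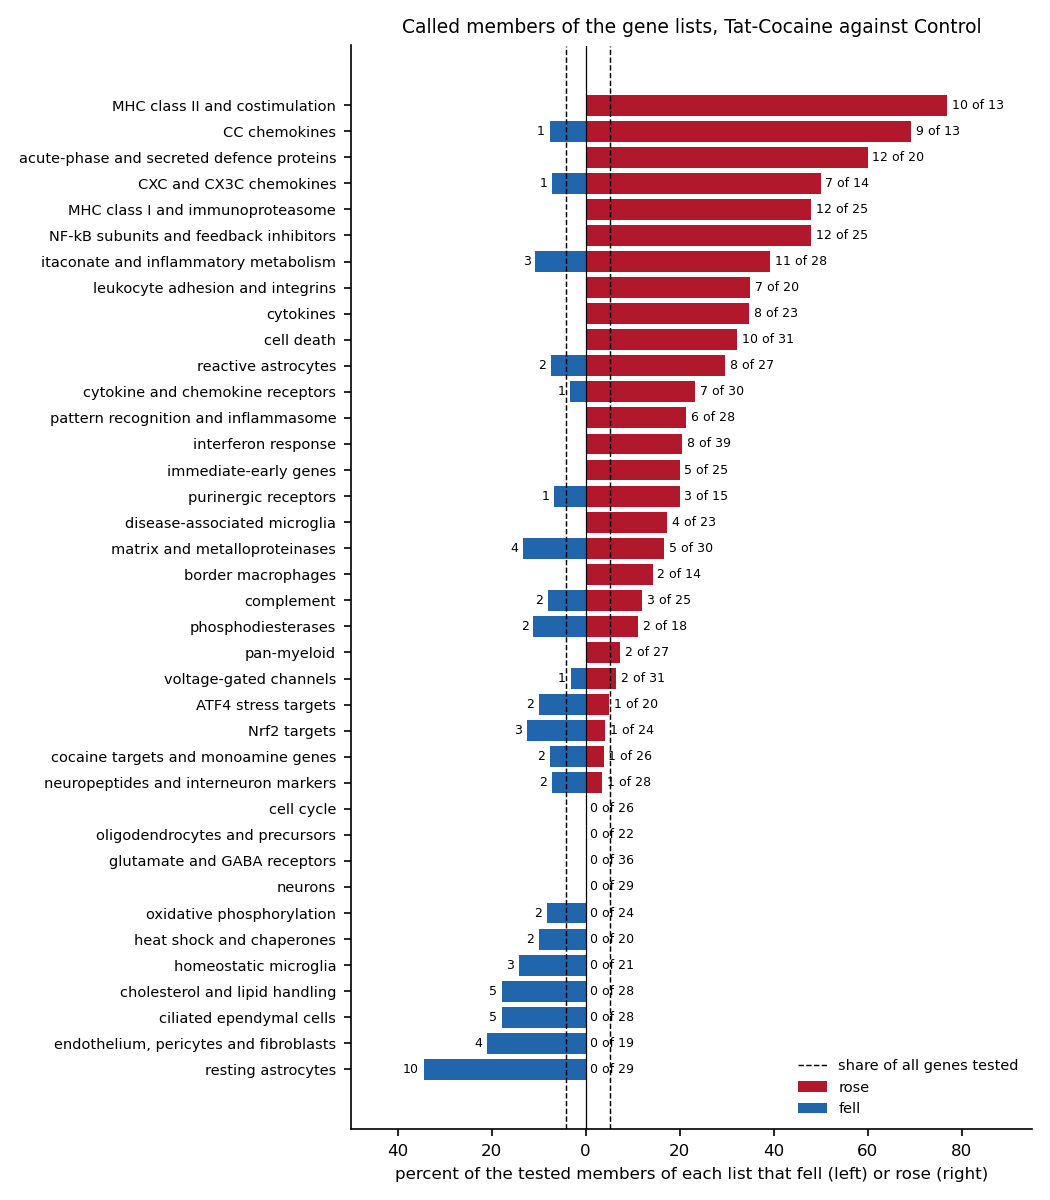
Percent of the tested members of each gene list (lists with at least 10 tested members) that rose (red, to the right) or fell (blue, to the left) in Tat-Cocaine against Control cultures, with counts beside the bars. Dashed lines mark the 5.11% and 4.27% of all genes tested that rose and fell; class II (10 of 13) and CC chemokines (9 of 13) stand at the top, and the neuron list has 0 of 29.

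Astrocyte genes went both ways. Of 29 genes of resting astrocytes 0 rose and 10 fell (median −0.33), 9 of the 10 in every fit with a library left out. The sum over the list was 13250 to 14990 CPM in Control and 9397 to 11150 CPM in Tat-Cocaine libraries, with no overlap. S100b, a calcium-binding protein of astrocytes, stood at 1288, 1114 and 2379 CPM in Control and at 260, 238 and 508 CPM in Tat-Cocaine libraries (−2.25, SE 0.29, adjusted p 0.00015). Gja1, connexin 43, of which astrocytes build their gap junctions, went from 557, 516 and 678 to 245, 235 and 289 CPM (−1.18, SE 0.16, adjusted p 0.00029). Mlc1 (−1.20) and its partner Hepacam (−0.71), membrane proteins of astrocyte endfeet, the bicarbonate transporter Slc4a4 (−1.07), the GABA transporter Slc6a11 (−0.88) and the glycolytic enzyme Aldoc (−0.97) fell as well. In bulk cultures fewer cells of a type and less RNA per cell cannot be told apart. Other defining astrocyte genes did not pass the test. Aqp4 stood at 1639 to 1700 CPM in Control and at 1580 to 2011 CPM in Tat-Cocaine libraries. Slc1a2 stood at 48.1 to 60.4 and 52.7 to 57.1 CPM, and Aldh1l1 at 21.0 to 28.6 and 21.9 to 34.3 CPM. Slc1a3 was not called either, but its Tat-Cocaine libraries all lay below Control, at 1591 to 1824 against 1900 to 2041 CPM. Gfap, the filament protein of reactive astrocytes, stood at 4447, 4044 and 4756 CPM in Control and at 3031, 2751 and 3661 CPM in Tat-Cocaine libraries (−0.50, adjusted p 0.22).

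Hapln1, the link protein that ties hyaluronan to proteoglycans in perineuronal nets, fell by 2.23 on the log2 scale (SE 0.45, adjusted p 0.0052), from 215, 141 and 137 to 38.1, 39.8 and 25.8 CPM. Genes of reactive astrocytes rose in part, 8 of 27 with 2 fallen (median 0.33). Steap4, a metalloreductase, rose by 5.003 (SE 1.01, adjusted p 0.0050), with 16.9, 55.3 and 243 CPM in the treated libraries against at most 2.89 CPM. Timp1, an inhibitor of metalloproteinases, rose from 32.7, 59.5 and 34.6 to 199.6, 294 and 212 CPM (2.49, SE 0.25, adjusted p 1.7e-05), and the hyaluronan receptor Cd44 from 106, 125 and 89.8 to 375, 592 and 471 CPM (2.15, SE 0.23, adjusted p 2.2e-05). Stat3, through which cytokines drive astrocyte reactivity, rose by 0.88. Fbln5 (−1.66) and Cd109 (−1.38) were the members that fell.

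Genes of multiciliated ependymal cells, which line the ventricles, fell in part. Of 28 such genes 5 fell and 0 rose, with a median of −1.03, and 13 were called with the replicate block. The count was 13 without Control replicate 1, 3 without Control replicate 2 or Tat-Cocaine replicate 1, and 2 without Control replicate 3 or Tat-Cocaine replicate 2. Control replicate 3 was the highest Control library for 24 of the 28. Ak7, an adenylate kinase of motile cilia, stood at 48.7, 73.1 and 89.0 CPM in Control and at 19.5, 24.2 and 28.8 CPM in Tat-Cocaine libraries (−1.50, SE 0.31, adjusted p 0.0063). The sum of the list was 627 to 1365 CPM in Control and 349 to 621 CPM in Tat-Cocaine libraries, with no overlap but with the lowest Control library only just above the highest treated library. Other large falls were those of Nkain4, a partner of the sodium pump, from 114, 117 and 183 to 24.5, 17.5 and 22.1 CPM (−2.64, SE 0.18, adjusted p 7.0e-07), the sulfotransferase Sult1d1 (−2.64), Ecrg4, a secreted peptide of the choroid plexus (−2.40), Igsf1 (−2.19) and Agt, angiotensinogen (−2.19).

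Cells of the vessel wall were represented by 19 genes, of which 4 fell (Slco1a4, Acta2, Tagln and Vwf) and 0 rose although the median was 0.28. Without Control replicate 3 the call remained for 1 of the 4, Tagln, and without Tat-Cocaine replicate 2 there were 2 calls. Tagln, the actin-binding protein transgelin of smooth muscle and pericytes, fell by 1.17 on the log2 scale (SE 0.23, adjusted p 0.0046), from 903, 859 and 947 to 429, 386 and 389 CPM. The sum of the list was 1146, 1139 and 1801 CPM in Control and 878, 854 and 1032 CPM in Tat-Cocaine libraries. Tagln, the member with the highest mean, made up a large part of this sum. The sum therefore does not show a fall of the list as a whole. Oligodendrocyte genes differed more between replicates than between groups. Mbp, the myelin basic protein, stood at 393, 162 and 27.4 CPM in Control and at 324, 151 and 103 CPM in Tat-Cocaine libraries, and 0 of 22 genes of the lineage were called by limma or had an unadjusted p under 0.05.

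Genes of homeostatic microglia did not rise as a group, and few pan-myeloid genes were called. Of 21 genes of homeostatic microglia 0 rose and 3 fell (median −0.13), and the sum of the list was 1084 to 1550 CPM in Control and 819 to 1262 CPM in Tat-Cocaine libraries. Crybb1, a crystallin that marks resting microglia, fell by 2.14 on the log2 scale (SE 0.41, adjusted p 0.0035), from 4.03, 9.32 and 3.86 to 0.639, 0.532 and 1.41 CPM, and Adgrg1 by 0.70. P2ry12, the nucleotide receptor of resting microglia, varied from 10.1 to 40.01 CPM in Control and from 4.42 to 11.5 CPM in Tat-Cocaine libraries and did not pass the test. Csf1r, the survival receptor of the lineage, stood at 303, 456 and 383 CPM in Control and at 363, 203 and 386 CPM in Tat-Cocaine libraries (−0.30, adjusted p 0.76). Of 27 pan-myeloid genes 2 rose, Rac2 and Ncf4, and 0 fell (median 0.55), and 4 were called with the replicate block. Among all genes tested 5.11% rose and 4.27% fell, so the count of 2 was near the share of all genes. That count was 0 without Control replicate 1 or 3 or Tat-Cocaine replicate 3. It was 1 when another Tat-Cocaine library was left out, and Control replicate 2 was the highest Control library for 26 of the 27. Their sum was 1450 to 2711 CPM in Control and 2452 to 5397 CPM in Tat-Cocaine libraries, with overlap. Aif1, the microglial protein Iba1, overlapped as well, with 42.1, 122 and 68.4 against 97.7, 91.6 and 193 CPM (0.76, adjusted p 0.55). Itgam did not overlap, with 62.8, 102 and 70.8 against 174, 121 and 186 CPM. It was not called by limma (adjusted p 0.198) but was with the replicate block (adjusted p 0.0488). For 9 of the 27 pan-myeloid genes all Tat-Cocaine libraries lay above Control, and for 0 below. Over all genes tested the shares were 15.2% and 13.4%. The part of these levels in the rise of the cytokine, chemokine and class II genes was not tested.

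A few genes of disease-associated microglia did rise, 4 of 23 with 0 fallen (median 0.33). Lilrb4, an inhibitory receptor of myeloid cells, went from 3.76, 2.99 and 4.45 to 23.3, 34.3 and 41.95 CPM (2.97, SE 0.36, adjusted p 8.4e-05). The protease inhibitor gene Cst7 (2.76) and the integrin gene Itgax (2.19) rose too. Of 14 genes of border macrophages 2 rose and 0 fell (median −0.00), with 1 rise without Control replicate 1 or 3 or Tat-Cocaine replicate 2. Mrc1, Cd163 and Lyve1, their defining genes, were not called. Cd163 nevertheless lay wholly below Control, at most 25.5 against at least 40.4 CPM. Lyve1 did as well, at most 107 against at least 148 CPM. Mrc1 overlapped, with 124 to 270 CPM in Tat-Cocaine libraries against 229 to 280 CPM in Control. In this list 4 genes lay wholly below Control and 3 wholly above. Of 20 genes of leukocyte adhesion 7 rose and 0 fell (median 0.24), among them the fibronectin receptor subunit Itga5 (1.61, SE 0.35, adjusted p 0.0085) and Itgav (0.67, SE 0.12, adjusted p 0.0026). There were 3 calls without Control replicate 3 and 4 without Control replicate 1 or Tat-Cocaine replicate 2 or 3.

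Neuronal genes were not called at all by limma. Of 29 neuron markers and of 36 glutamate and GABA receptor genes 0 passed the test, with medians of −0.24 and −0.29 beside 0.01 over all genes tested. At an unadjusted p under 0.05 there were 1 and 2 such genes, and with the replicate block 1 of the 36 receptor genes was called. Map2, a microtubule protein of dendrites, stood at 639, 500.1 and 592 CPM in Control and at 449, 478 and 422 CPM in Tat-Cocaine libraries, which did not overlap (−0.35, adjusted p 0.43). For Gad1, which makes GABA, the values were 488, 376 and 356 against 306, 269 and 245 CPM, likewise apart and likewise not called. Snap25, a synaptic vesicle fusion protein, overlapped, with 542, 378 and 319 against 388, 371 and 288 CPM. Control replicate 1 was the highest Control library for 28 of the 29 markers and 34 of the 36 receptor genes. The sum of the neuron list was 5102 to 8016 CPM in Control and 4398 to 5801 CPM in Tat-Cocaine libraries, with overlap.

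Single genes of neuronal function were called. For neuropeptide, monoamine and channel genes the share called was near the 9.37% of all genes tested. Of 28 neuropeptide and interneuron genes 1 rose and 2 fell: the calcium buffer Pvalb went from 1.27, 1.27 and 0.545 to 5.88, 12.4 and 5.56 CPM (2.42, SE 0.41, adjusted p 0.0014), and Calb1, another calcium buffer, from 185, 151 and 308 to 59.5, 52.7 and 82.3 CPM (−1.68, SE 0.33, adjusted p 0.0037). Of 25 immediate-early genes, which neuronal activity and stress induce, 5 rose (median 0.11) and 8 were called with the replicate block. There were 2 calls without Tat-Cocaine replicate 2 and 3 without Control replicate 1 or 3 or Tat-Cocaine replicate 3. Btg2, an antiproliferative factor of this group, rose by 1.17 (SE 0.15, adjusted p 0.00016), from 28.3, 32.2 and 26.1 to 60.5, 78.5 and 59.1 CPM, and Maff, a small Maf factor, by 1.80 (SE 0.38, adjusted p 0.0070). Of 26 cocaine targets and monoamine genes 1 rose and 2 fell (median −0.14), and 1 was called without Control replicate 1 or Tat-Cocaine replicate 2. Adra2a, the α2A adrenergic receptor, fell by 1.09 on the log2 scale (SE 0.22, adjusted p 0.0051), from 9.93, 9.56 and 17.3 to 5.07, 6.18 and 4.75 CPM. Of 31 voltage-gated channel genes 2 rose and 1, the pacemaker channel Hcn2, fell in every fit with a library left out (−0.62, SE 0.13, adjusted p 0.0068), while the rises were not called without Control replicate 1 or Tat-Cocaine replicate 3.

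Phosphodiesterases, which break down cyclic nucleotides, and P2 purinergic receptors, which sense extracellular nucleotides, changed in part. Of 18 phosphodiesterase genes 2 rose and 2 fell, and the falls were not called without Control replicate 1 or 3 or Tat-Cocaine replicate 2. Pde4b, a cyclic AMP phosphodiesterase of immune cells and glia, went from 38.8, 39.4 and 21.7 to 60.3, 96.3 and 84.7 CPM (1.28, SE 0.26, adjusted p 0.0052), and Pde9a, which hydrolyses cyclic GMP, rose by 0.87 (SE 0.17, adjusted p 0.0044). Of 15 purinergic receptor genes 3 rose and 1 fell, 2 were called without Control replicate 3 or Tat-Cocaine replicate 2, and 7 with the replicate block. P2ry2, a receptor for ATP and UTP, stood at 1.61, 2.01 and 1.04 CPM in Control and at 7.41, 8.23 and 13.6 CPM in Tat-Cocaine libraries (2.30, SE 0.33, adjusted p 0.00038). P2rx6, an ATP-gated channel subunit, fell by 1.38 on the log2 scale (SE 0.29, adjusted p 0.0061). P2ry6, the UDP receptor of microglial phagocytosis, went from 7.67, 19.6 and 17.2 to 42.5, 41.5 and 89.5 CPM and missed the threshold (1.94, SE 0.60, adjusted p 0.052), while the replicate block called it (adjusted p 0.0076). P2rx4 passed it narrowly, from 38.3, 60.99 and 48.3 to 84.8, 77.2 and 114 CPM (0.90, adjusted p 0.048), and was no longer called without Control replicate 1 (0.74) or 3 (0.90) or Tat-Cocaine replicate 1 (0.95), 2 (1.02) or 3 (0.74).

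Genes of cell death and stress changed modestly. Of 31 cell death genes 10 rose and 0 fell (median 0.46), 3 of them in every fit with a library left out and 5 without Control replicate 1 or 3 or Tat-Cocaine replicate 2 or 3. Birc2, an inhibitor of apoptosis, rose most, from 51.7, 72.4 and 51.9 to 142, 265 and 233 CPM (1.82, SE 0.31, adjusted p 0.0014), beside Bid (0.77) and Apaf1 (0.49), both of the mitochondrial route to apoptosis. Of 20 ATF4 stress targets 1 rose and 2 fell. The stress transcription factor Ddit3 rose by 1.63 (SE 0.25, adjusted p 0.00070) from 26.2, 37.4 and 21.0 to 71.0, 108 and 82.5 CPM, whereas Psat1, an enzyme of serine synthesis, fell from 271, 295 and 470 to 138, 125 and 106 CPM (−1.45, SE 0.16, adjusted p 3.2e-05). Of 24 Nrf2 targets 1 rose and 3 fell (median 0.04). Gstm1, a glutathione transferase, fell by 0.82 on the log2 scale (SE 0.13, adjusted p 0.00060), from 435, 491 and 474 to 305, 261 and 228 CPM.

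Of 28 genes of cholesterol and lipid handling 5 fell and 0 rose (median −0.20), and 8 were called with the replicate block. There were 3 calls without Control replicate 1 or 2 or Tat-Cocaine replicate 1. Idi1 went from 65.4, 63.9 and 45.3 to 33.3, 36.8 and 31.6 CPM and Cyp51 from 220, 262 and 180 to 118, 135 and 133 CPM, each a fall of 0.76 on the log2 scale, and Hmgcs1 and Sqle fell by less. The fall of Hmgcs1 was lost without Control replicate 2 (−0.63) or Tat-Cocaine replicate 3 (−0.67), and that of Sqle in 5 of the 6 fits with a library left out, among them that without Control replicate 3 (−0.30). Of 20 heat shock genes 2 fell, 0 without Tat-Cocaine replicate 2 and 1 without Control replicate 3 or Tat-Cocaine replicate 3. Of 24 genes of oxidative phosphorylation 2 fell, Ppargc1a (−0.90, SE 0.18, adjusted p 0.0047), a coactivator of mitochondrial genes, and Sdhc (−0.28), 1 was called without Tat-Cocaine replicate 2, and 5 with the replicate block. Heat shock and oxidative phosphorylation genes were called at about the share of all genes tested, 9.37%. Of 26 cell cycle genes 0 were called by limma (median 0.24), 3 had an unadjusted p under 0.05, and 2 were called with the replicate block. Of 30 matrix genes 5 rose and 4 fell, with 5 calls in all without Control replicate 3 or Tat-Cocaine replicate 2. Has2, which makes hyaluronan, rose by 3.11 (SE 0.48, adjusted p 0.00065), and the gelatinase Mmp2 by 2.00 (SE 0.45, adjusted p 0.0094), from 4.45, 9.56 and 17.6 to 28.8, 49.1 and 39.4 CPM, while the metalloproteinase inhibitor Timp3 (−1.10) and Adamts9 (−1.24) fell.

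Tat and cocaine had also been given singly, and both groups were compared with the same Control libraries as Tat-Cocaine, so the values that follow are not independent. With Tat alone 14.3% of the genes tested changed (9.69% rose, 4.59% fell), and with cocaine alone 0.00641%, which is 1 gene, the calcium-binding protein gene S100a4, beside 1322 genes at an unadjusted p under 0.05. For Ccl2 the log2 fold change was 4.52 with both, 4.89 with Tat and −0.25 with cocaine, and for Cd74 it was 5.45, 6.03 and 0.15. For Acod1 it was 3.40, 5.35 and 0.08, for Cfb 4.74, 5.79 and −0.14, and for Nfkbiz 3.48, 4.00 and 0.43. The falls read similarly, with −1.18, −1.14 and 0.15 for Gja1 and −1.45, −1.48 and 0.03 for Psat1. Hapln1 had −2.23 with both, −0.77 with Tat and −1.24 with cocaine. The median over CC chemokines was 2.99 with both, 3.51 with Tat and −0.01 with cocaine, and over acute-phase genes 1.85, 2.77 and 0.10. Over pan-myeloid genes it was 0.55, 1.18 and 0.31, and over neurons −0.24, −0.49 and −0.73. Over voltage-gated channel genes it was −0.07, −0.41 and −0.58, and over oligodendrocyte genes 0.56, 0.42 and 1.58. These medians carry no test.

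**Figure D4:**
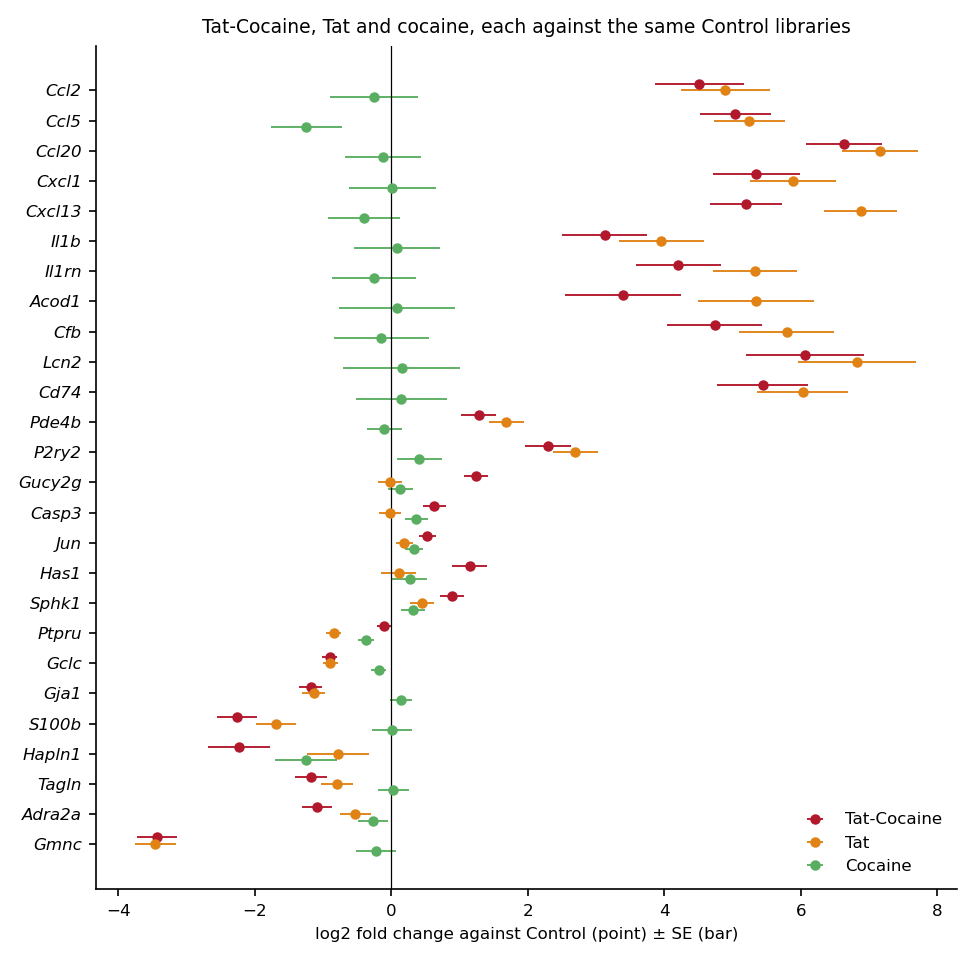
Log2 fold change against Control (horizontal axis, log2(CPM + 0.5) scale, bars ± SE) of 26 genes in Tat-Cocaine (red), Tat (orange) and Cocaine (green) cultures. The 3 sets share the Control libraries; Ccl2 sits at 4.52, 4.89 and −0.25, and Gucy2g, at 1.24, −0.02 and 0.14, is 1 of the 2 genes that differed between Tat-Cocaine and Tat.

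A direct test of Tat-Cocaine against Tat cultures, which may also differ in the length of the Tat period, called 2 genes, 0.0128% of those tested, both higher in Tat-Cocaine than in Tat cultures, and 841 genes had an unadjusted p under 0.05. Gucy2g, a membrane guanylyl cyclase, stood at 0.0665 ± 0.0778 CPM in Tat cultures (mean ± SD, n = 3) and at 0.724, 1.19 and 0.684 CPM in Tat-Cocaine libraries, a difference of 1.26 (SE 0.18, adjusted p 0.0371). In Control it was at 0.115, 0.0490 and 0.0454 CPM, and its rise over Control was 1.24 (SE 0.18, adjusted p 0.00041). Ptpru, a receptor tyrosine phosphatase, stood at 24.0 ± 1.72 CPM in Control, 18.5 ± 1.93 with cocaine, 13.2 ± 1.73 with Tat and 22.4 ± 1.67 with both (n = 3 each). It was 0.74 higher in Tat-Cocaine than in Tat cultures (SE 0.11, adjusted p 0.0371) and did not differ from Control beyond its error (−0.10, SE 0.11, adjusted p 0.65). It was also the 1 gene (0.00641%) with a called interaction of Tat and cocaine, 1.11 (SE 0.16, adjusted p 0.0363), beside 1092 genes at an unadjusted p under 0.05. That count was 321 without Cocaine replicate 1, 1 without Tat replicate 3 and 0 without any 1 of the other libraries, with the replicate block, in the groups alone or in all 48 libraries. Between Tat-Cocaine and Tat cultures 0 genes were called with a pseudocount of 0.1, a minimum of 2 CPM, the replicate block or the 2 groups alone, and 0 in 5 of the 6 fits with a library left out, with 1 without Tat replicate 3.

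The response to Tat and cocaine was also measured in cultures that held a small molecule, with the cultures given that molecule alone as the baseline. The molecules were Senicapoc (1 µM), a blocker of the potassium channel KCa3.1, Amlexanox (25 µM), an inhibitor of the kinases TBK1 and IKKε, Tazemetostat (3 µM), an inhibitor of the histone methyltransferase EZH2, and 4OI (250 µM), a cell-permeable itaconate ester. None of these baselines shares a library with Control or Tat-Cocaine. In a fit to all 48 libraries (15890 genes), 34.2% of the genes changed with Senicapoc (20.6% rose, 13.5% fell) and 44.6% with Amlexanox (25.1% rose, 19.5% fell). With Tazemetostat 40.1% changed (21.0% rose, 19.2% fell) and with 4OI 11.8% (6.96% rose, 4.86% fell). The counts differed between backgrounds, and whether the cultures of each were prepared together is not given in the sources used here.

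In the same fit to 48 libraries 1371 genes rose (8.63%) and 1001 fell (6.30%) without a compound, more than in the fit to 21 libraries used above. Of the 1371 risen genes 1028 also rose with Senicapoc (74.98% of the 1371, 31.4% of the 3277 risen with Senicapoc). With Tazemetostat 1113 did (81.2% and 33.4% of 3331), with Amlexanox 913 (66.6% and 22.9% of 3983) and with 4OI 597 (43.5% and 53.98% of 1106). Of the 1001 fallen genes 638 also fell with Tazemetostat (63.7% and 20.9% of 3047), 482 with Senicapoc (48.2% and 22.4% of 2152), 319 with 4OI (31.9% and 41.3% of 773) and 301 with Amlexanox (30.1% and 9.69% of 3106). With Amlexanox 80 of the 1001 rose instead. The difference between the response with and without a compound was itself tested, only in the main fit to all 48 libraries. For Senicapoc 0 genes were called and for Tazemetostat 0, with 2308 and 2187 at an unadjusted p under 0.05.

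For Amlexanox the difference was called for 1481 genes (9.32%), 1025 higher (6.45%) and 456 lower (2.87%) than without it. Among the lists, that of ependymal cells stood out by its count, with 24 of 28 genes called, all 24 higher, and a median difference of 2.28. With Amlexanox in both groups 20 of the 28 rose and 2 fell (median 1.20). Ak7 stood at 17.7 ± 8.81 CPM with Amlexanox alone and at 33.1 ± 7.62 CPM with Amlexanox, Tat and cocaine, a rise of 1.02 (adjusted p 0.0216) beside −1.50 without Amlexanox (difference 2.52, SE 0.51, adjusted p 0.0066). S100b stood at 778 ± 687 and 691 ± 51.1 CPM, a response of 0.21 beside −2.25 without Amlexanox (difference 2.46, SE 0.61, adjusted p 0.0136). Mlc1 stood at 1013 ± 537 and 1192 ± 162 CPM, 0.36 beside −1.20 (difference 1.55, SE 0.38, adjusted p 0.0128). The cultures given Amlexanox alone varied widely in these genes, with an SD close to the mean for S100b. Of 29 genes of resting astrocytes 7 differed, all higher. Has1, which had risen by 1.15, and Btg2, which had risen by 1.17, differed in the other direction (−2.08, adjusted p 0.0017, and −1.14, adjusted p 0.0060).

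For 4OI the difference was called for 18 genes (0.113%), 4 higher (0.0252%) and 14 lower (0.0881%). Retn stood at 0 CPM with 4OI alone and at 0.111 ± 0.0102 CPM with 4OI, Tat and cocaine, a response of 0.29 beside 3.34 without 4OI (difference −3.05, SE 0.35, adjusted p 3.8e-06). Ccl22 stood at 0.155 ± 0.0298 and 0.0993 ± 0.0411 CPM, −0.13 beside 3.24 (difference −3.37, SE 0.68, adjusted p 0.0260). Rarres1, a retinoid-responsive membrane protein gene, rose by 1.30 without 4OI and fell with it, from 40.9 ± 2.17 to 22.1 ± 6.26 CPM (−0.91, adjusted p 0.0089, difference −2.21, adjusted p 0.00049). The death ligand gene Tnfsf10 differed by −1.98 (adjusted p 0.0108). NF-κB genes rose in 15 of 25 with 4OI, in 22 with Senicapoc, in 22 with Amlexanox and in 21 with Tazemetostat, and class II genes in 6, 13, 12 and 14 of 14, beside 18 of 25 and 11 of 14 without a compound in this fit. The difference from the response without a compound was called for 0 of these genes with 4OI, Senicapoc or Tazemetostat, and with Amlexanox for 0 NF-κB genes and 3 class II genes, all lower.

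**Figure D5:**
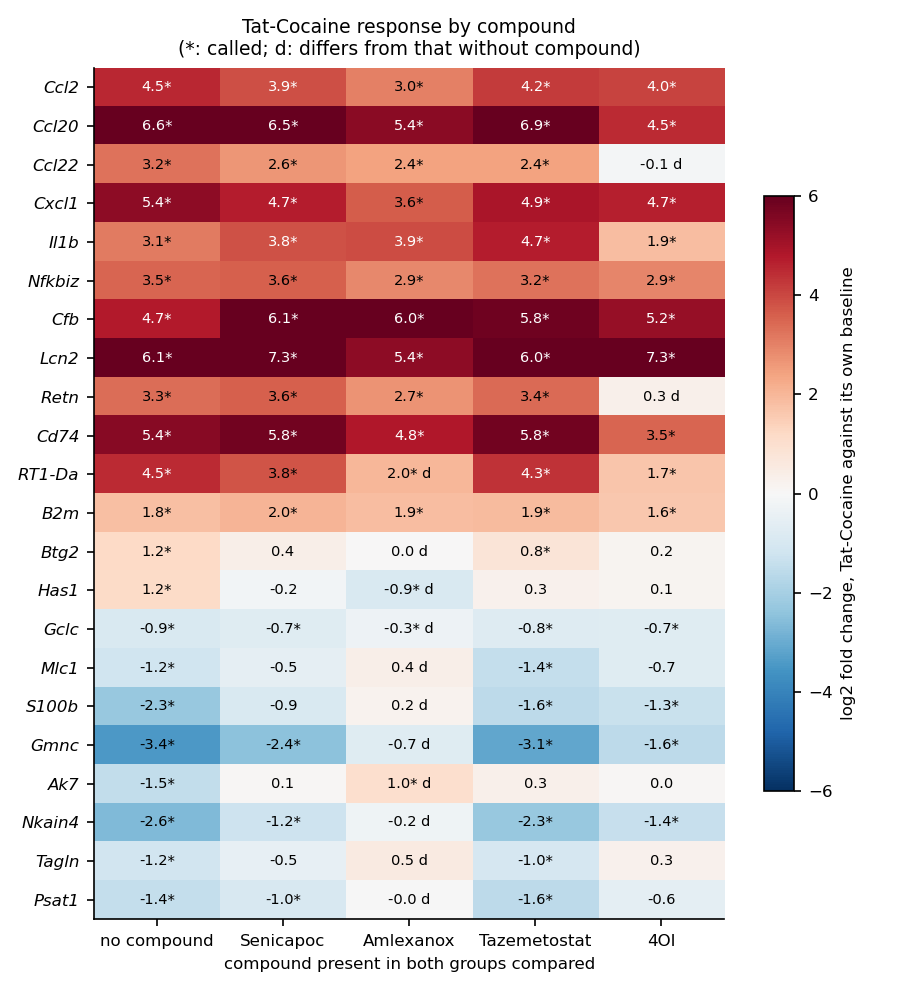
Log2 fold change of Tat-Cocaine cultures against their own baseline (color and number, log2(CPM + 0.5) scale) for named genes (rows), without a compound and with each of 4 compounds in both groups (columns). Stars mark genes called and the letter d those whose response differed from that without a compound, as for Gmnc, Ak7, S100b and Mlc1 with Amlexanox and Retn and Ccl22 with 4OI.

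Cell cycle genes rose in part with each compound, and neuron genes fell in part with each but 4OI. Of all genes tested 20.6, 25.1, 21.0 and 6.96% rose with Senicapoc, Amlexanox, Tazemetostat and 4OI, and 13.5, 19.5, 19.2 and 4.86% fell. Without a compound, 2 of 26 cell cycle genes rose and 0 of 30 neuron markers were called in the same fit. Of 26 cell cycle genes 21 rose with Senicapoc, 20 with Amlexanox, 14 with Tazemetostat and 13 with 4OI, with medians of 1.41, 1.25, 0.88 and 1.00. Of 30 neuron markers 13 fell with Senicapoc, 22 with Amlexanox, 25 with Tazemetostat and 1 with 4OI, with medians of −0.75, −0.92, −1.02 and −0.47. Of 27 pan-myeloid genes 25 rose with Senicapoc, 16 with Amlexanox and 18 with Tazemetostat, with 4OI 0 rose and 2 fell, and without a compound 6 rose. The difference from the response without a compound was called for 0 genes of these 3 lists with any of the 4 compounds, so the lists are not shown to respond differently.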

How the data were processed

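The series holds 48 libraries in 16 groups of 3, which were assigned by their labels. The authors made directional libraries, sequenced paired ends, trimmed with Trim Galore 0.4.5, aligned with STAR 2.7.2 and counted reads per gene with featureCounts (Subread 1.5.3). The genome is Rnor_6.0 in the methods and mRatBN7.2 in the submitters' processing notes. The signal the authors deposited is CPM after TMM normalization, for 30211 genes, of which 6162 were at 0 throughout. Since 85.3 to 86.4% of the values of the 6 libraries were whole reads (within 0.02 read), no count test was run. The 196 other columns, mainly the authors' own fold changes and p-values, were not used.

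Log2(CPM + 0.5) was fitted with limma 3.58.1 in R 4.3.3 (lmFit, eBayes with trend), with genes at 0.5 CPM or more in 3 libraries. The fit used 21 libraries of 7 groups, those without a compound and those with 4OI, and all 48 libraries for the compounds. Benjamini-Hochberg adjusted p under 0.05 was the threshold. An exact permutation test of 3 against 3 libraries cannot go below p 0.1. Members and the 39 gene lists (1048 genes, 926 tested) were chosen with earlier results of these data known. Genes named are the 12 largest rises and falls with a mean of at least 5 CPM called in all 6 fits with a library left out, the 4 largest called members of each list, defining markers, genes of the study's question and those of the direct tests; others named were picked after their values were seen. Control and Tat-Cocaine libraries of the same number deviated together (r 0.58, 0.21 and 0.59 over 12022 genes), so the replicate number was taken to pair them. The labels do not state such a pairing. Libraries of Tat and Tat-Cocaine with the same number did not deviate together (−0.38, −0.19 and −0.84). The other groups matched unevenly, with 0.19, −0.24 and −0.30 for Cocaine and −0.02, −0.04 and 0.19 for 4OI. For Tat-4OI the values were 0.72, −0.13 and −0.07, and for Tat-Cocaine-4OI 0.64, −0.24 and −0.24. The block in the 7 groups thus assumes a pairing, read from these same data, that only the Control libraries showed at all 3 numbers. The block was an alternative, beside other pseudocounts, filters, scalings, fits to fewer or more groups, and leaving out each library. Replicate libraries of a group correlated at 0.971 to 0.989 and none agreed within counting error. Scripts were tested on simulated data. A few genes are not reported here.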

Additional observations from a re-analysis of the deposited data

Results flagged for a closer look

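A test of the difference between 2 groups singled out 4 results. Ptpru had an interaction of Tat and cocaine of 1.11 on the log2 scale, and Gucy2g was 1.26 higher in Tat-Cocaine than in Tat cultures, each by limma with an adjusted p under 0.05. Neither comparison called a gene with the replicate block or in the groups alone, and Tat-Cocaine against Tat called 0 in 5 of the 6 fits with a library left out. The interaction called 0 in the fit to all 48 libraries. The response to Tat and cocaine differed with Amlexanox from that without it for 1481 genes, and with 4OI for 18 genes. These 2 counts were not refitted with a library left out or under other settings, so how far they depend on them is not known. No library of the named genes was tested for standing apart from its group, since groups held 3 libraries.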

How the results depend on the processing

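With 3 libraries a group, calls were limited by the spread between cultures, and genes under about 10 reads were not tested. Tat-Cocaine against Control gave 619 calls when the 2 groups were fitted alone, 2372 in a fit to all 48 libraries, 574 where the log2 fold change had also to reach 1 in size and 2242 with the replicate block in a fit to the 2 groups (45.2% higher, 1140 of them shared with the 1463, added after the data were seen). With the replicate block in the 7 groups it gave 2120, 1462 of them shared with the 1463. Leaving out 1 library gave 803 to 1252. Tat-Cocaine against Tat gave 0 calls with a pseudocount of 0.1, a minimum of 2 CPM, the replicate block or the groups alone, 1 with the minimum fold change, and 0 to 1 without 1 library. The interaction gave 0 with the replicate block, the groups alone or all 48 libraries, and 0 to 321 without 1 library. The minimum fold change left 1468 calls with Senicapoc, 1860 with Amlexanox, 1875 with Tazemetostat and 651 with 4OI, and the groups alone 633 with 4OI. Without 1 library these responses gave 3064 to 5106 (lowest without Tat-Cocaine-Senicapoc replicate 2), 4097 to 7233 (Amlexanox replicate 3), 4008 to 6184 (Tat-Cocaine-Tazemetostat replicate 2) and 671 to 2255 (Tat-Cocaine-4OI replicate 2). Quantile normalization moved the share of higher calls with Senicapoc from 60.4 to 44.99%. Of the values of named genes under alternatives that kept every library, 1623 kept direction and side of the threshold, 63 lost and 18 gained a call, and 1 turned, that of Fth1 (−0.19 with quantile normalization, not called). Without 1 library 859 kept both, 150 lost and 8 gained a call, and 8 turned, all of genes not called. Their ranges were −0.37 to 0.054 for Sst, −0.11 to 0.030 for Itgb1, −0.094 to 0.23 for Pde2a, −0.14 to 0.031 for Scn2a and −0.10 to 0.43 for Gstp1.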
